A study of Mus musculus with 50 samples.

Results

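Perigonadal white adipose tissue (pgWAT), the abdominal fat pad beside the testis and epididymis, was compared between 6 TG and 6 WT libraries collected 6 h after an injection of clozapine N-oxide (CNO) at 1 mg/kg. These are 12 of the 50 libraries of the series, and they were chosen by their titles alone. All were from male mice of the hM3DGq line, which carries an engineered receptor that CNO activates. The design sets mice positive for Gfral Cre, a recombinase made in Gfral neurons, against mice negative for it, and TG and WT are read here as the former and the latter. Both groups received the same dose, and each of the 12 libraries is from a mouse given CNO, so every difference below sets Cre-positive against Cre-negative mice after CNO. The labels state neither age nor strain background. They number the replicates from 1 to 6 and do not say whether a number stands for 1 mouse, so p-values measure the spread between these libraries, which may be technical. The series design names the purpose as finding transcript changes in a depot that took up more glucose when these neurons were activated.

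GFRAL is the receptor of GDF15, a stress hormone, and is made by a small set of hindbrain neurons whose activation reduces feeding and engages the stress axis. A fat depot can receive this signal through nerves and circulating hormones. Any effect of reduced feeding was not tested apart from these. Noradrenaline acts through beta-adrenergic receptors and cyclic AMP to release fatty acids from stored triglyceride, insulin restrains that release and drives glucose uptake, and glucocorticoids enter the cell, bind the receptor encoded by Nr3c1 and change transcription of genes that include many acting against insulin. The pad is a mixture of adipocytes, fibroblasts, mesothelium, vessels and immune cells, and in such bulk tissue fewer cells of a type and less RNA per cell cannot be told apart.

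The measurement was 3′ mRNA sequencing, which counts reads at the 3′ ends of polyadenylated transcripts. Gene counts per library ran from 9150496 to 12883462, so that 3 counts, the limit a count of 0 allows, corresponded to 0.233 to 0.328 CPM (counts scaled by library size, with TMM factors), a limit that covers counting error only. Of 55401 gene rows 14359 passed the filter on low counts. TG differed from WT in 2071 of them, or 14.4%, with 988 genes higher (6.88%) and 1083 lower (7.54%) at a Benjamini-Hochberg adjusted p under 0.05 in edgeR's quasi-likelihood test. Of these, 1042 differed by at least 1.5-fold and 420 by at least 2-fold, 210 in each direction. In 1096 genes the highest library of one group lay below the lowest of the other. The median log2 change over all tested genes was 0.0016. Counts of list members are to be read against the shares over all tested genes, 6.88% higher and 7.54% lower. The lists were chosen with earlier results of these data known, so their counts describe the members and are not independent evidence. Below, changes are log2 fold changes, positive where TG is higher, with their standard error (SE), levels are the lowest, median and highest of the 6 libraries of a group in CPM, and positions are from GENCODE vM21 on GRCm38.

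Markers of the tissue fitted the label. The 10 adipocyte markers summed to 40000 to 58270 CPM in WT and 34620 to 48170 CPM in TG, and Adipoq, the adiponectin gene, alone ranged from 4785 to 5548 CPM in WT and from 3783 to 5519 CPM in TG (log2 change -0.09, SE 0.09, adjusted p = 0.578). Brown fat markers were at 16.0 to 31.1 and 18.6 to 34.3 CPM, and Ucp1 had 6 counts over all WT and 8 over all TG libraries. Gfral had 0 counts in WT and 5 in TG, from 2 libraries, and since its neurons lie in the brain it does not check the genotype here. Gdf15, the ligand, had 270 counts over all WT and 257 over all TG libraries (-0.08, SE 0.50, adjusted p = 0.942). Spike-in RNA took 0.0940% of counts in WT and 0.0919% in TG, a difference of -0.00212 percentage points (two-sided exact permutation test, p = 0.392). The first principal component, with 29.4% of the variance, separated the genotypes. TG 1 stood apart on the second and had the highest sums of macrophage (2417 CPM against 1247 to 1773 in WT and 1287 to 1527 in the other TG libraries) and T and NK cell markers (50.6 CPM against 13.0 to 32.2). TG 2 had liver transcripts at 1455 CPM, against 42.2 to 81.0 CPM in all other libraries. Epididymis markers summed to 63.6 CPM in TG 2 and 30.5 CPM in TG 4, against 7.52 to 17.3 CPM in WT. Testis markers were at 4.09 CPM in TG 2 and at most 0.0940 CPM in WT. Skeletal muscle markers summed to 24.4 to 51.9 CPM in WT and 63.0 to 123 CPM in TG, without overlap, and most of this was Acta1, the actin of skeletal muscle (1.26, SE 0.25, adjusted p = 0.00602). The part of these differences in the results was not tested, other than by leaving libraries out.

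**Figure D1:**
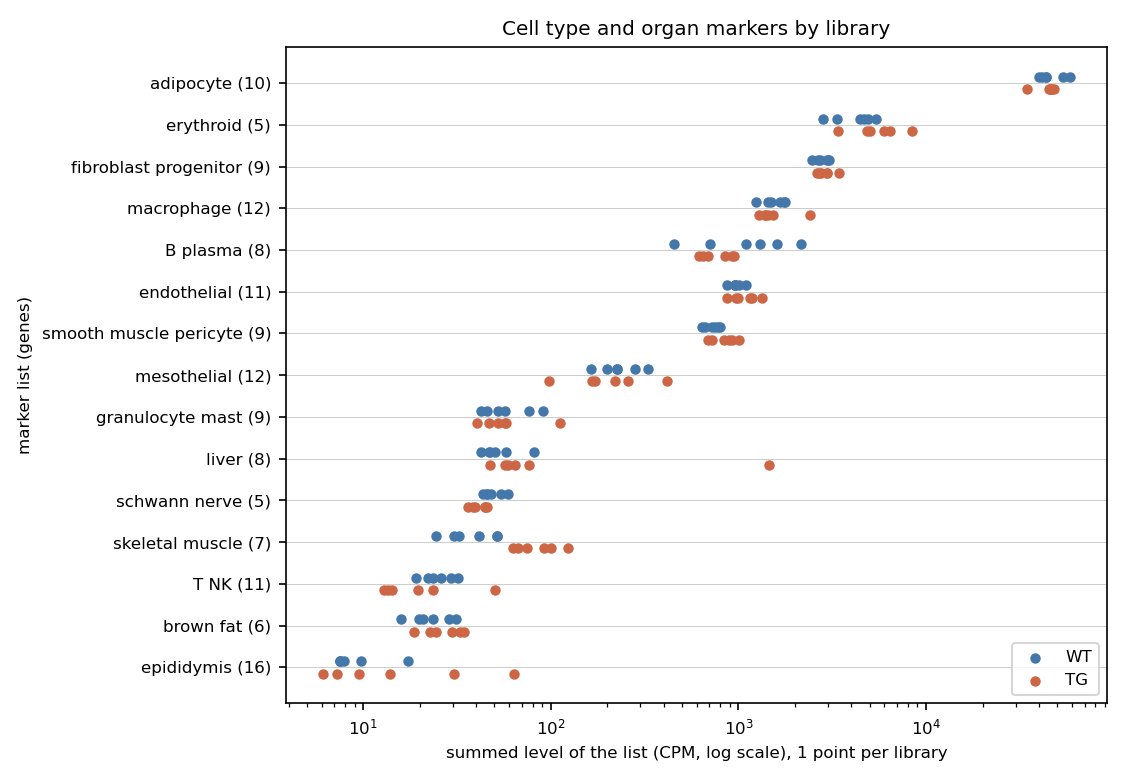
Summed level of each cell type or organ marker list (rows, with the number of genes) in every library, as CPM on a log axis, for WT (blue) and TG (orange). Adipocyte markers lead in all 12 libraries, 1 TG library (TG 2) is high in liver transcripts at 1455 CPM, and skeletal muscle markers are the list whose groups do not overlap.

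The genes that glucocorticoids are known to induce were mostly higher in TG fat. Of 27 tested members of that list 22 rose and 1 fell, with a median of 1.36, against 6.88% higher and 7.54% lower among all tested genes. Fkbp5 (ENSMUSG00000024222, chromosome 17, 28399094 to 28517527), a co-chaperone that dampens the glucocorticoid receptor, was at 40.1, 48.9 and 74.2 CPM in WT and at 351, 441 and 506 CPM in TG. The groups did not come near each other, and the change was 3.08 (SE 0.14, adjusted p = 3.97e-09). Other members that rose were the anti-inflammatory regulator Tsc22d3, known as GILZ (1.68), the adipogenic factor Cebpd (2.02), the efferocytosis receptor gene Mertk (1.36), Fam107a, a stress-induced actin regulator (2.71), and the ion transport kinase gene Sgk1 (1.28). The clock gene Per1 (0.91) and Klf9 (0.42) rose as well. The count of 22 ranged from 21 to 23 over all alternatives. Since the list was chosen with earlier results of these data known, this count is not independent evidence of a glucocorticoid response.

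The receptor itself was lower. Nr3c1, the glucocorticoid receptor, was at 112, 140 and 149 CPM in WT and at 79.4, 91.1 and 97.6 CPM in TG, without overlap (-0.62, SE 0.07, adjusted p = 1.89e-05). Of 16 tested genes for the receptor and its cofactors and steroid enzymes, the coactivator Ncoa1 (0.48) and H6pd (0.31), which supplies NADPH to the cortisone-activating enzyme, rose. Nr3c1 was 1 of 2 that fell, and the other 12 did not pass. With the replicate number as a block the call of H6pd was lost.

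The single member of the induced list that fell did so by a larger step than any other gene named here. Rasd1 (ENSMUSG00000049892, chromosome 11, 59963181 to 59964944), a Ras-like G protein first described as induced by dexamethasone, was at 103, 134 and 162 CPM in WT and at 1.68, 5.24 and 9.39 CPM in TG. The change was -4.63 (SE 0.31, adjusted p = 1.94e-06), in the direction opposite to the list it belongs to. The metallothionein genes Mt1 and Mt2, neighbours on chromosome 8 that encode small zinc-binding proteins, rose by 2.21 (SE 0.25) and 2.47 (SE 0.35). Mt1 was at 601, 820 and 1339 CPM in WT and at 3525, 3799 and 6159 CPM in TG, so that the lowest TG library held more than the highest WT library.

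The promoters of the induced genes were searched, on both strands, for ACANNNTGT, the core of the glucocorticoid response element, in the 250 bases before and 50 after each RefSeq start (build GRCm38.p6). A match was present in 5 of 31 promoters of the 19 members that rose and had a promoter entry (16.1%), in 595 of 13414 promoters of tested genes (4.44%) and in 53 of 972 promoters of genes called higher (5.45%). Several of the 31 promoters belong to the same gene and overlap, and the 5 matches came from 3 of the 19 genes. The list was drawn up as glucocorticoid-induced genes, for which such sites are a known property. The matches of 3 genes are shown, read on the strand of the gene, with the match in capitals, because they let the element be compared between members that rose.
Fam107a, chr14:8309867-8309915, minus strand: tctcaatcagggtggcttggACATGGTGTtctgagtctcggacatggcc
Sgk1, chr10:21993684-21993732, plus strand: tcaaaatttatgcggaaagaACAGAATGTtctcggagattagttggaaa
Mt1, chr8:94178977-94179025, plus strand: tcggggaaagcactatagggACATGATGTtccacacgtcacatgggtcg
Counted from the start site, the match begins at -116 in Fam107a, at -186 in Sgk1 (at the more downstream of its starts) and at -92 in Mt1. A match is a description of letters, and binding was not measured.

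**Figure D2:**
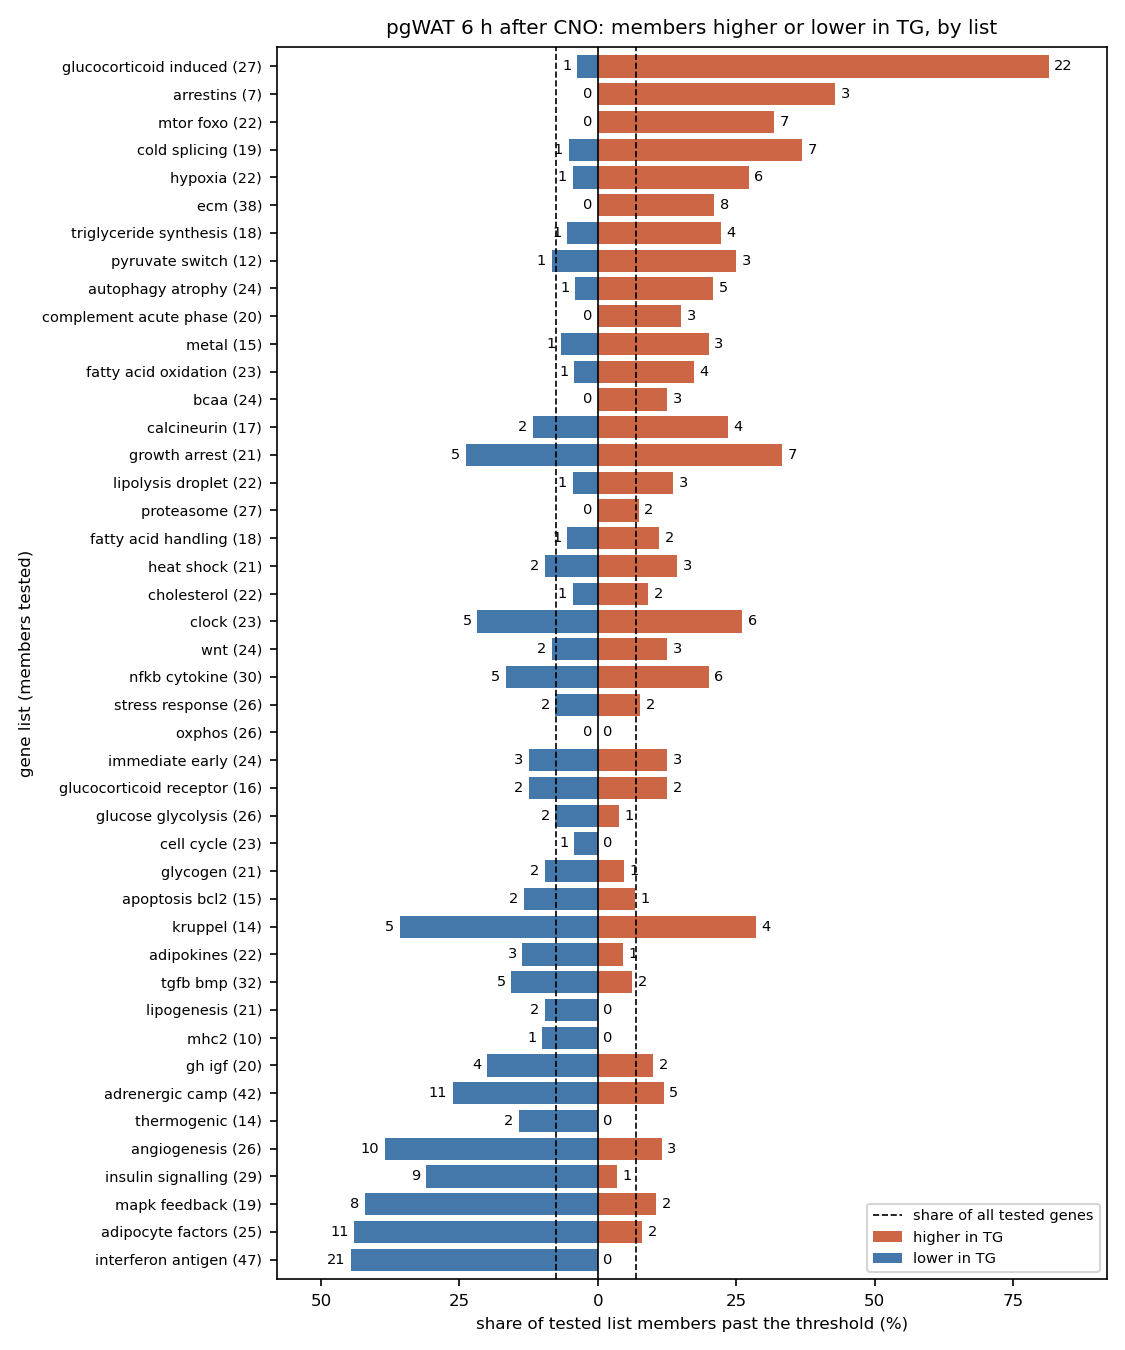
Share of the tested members of each of the 44 programme lists (rows, members tested in parentheses) that were higher (orange, right) or lower (blue, left) in TG past the threshold, in percent, with counts at the bar ends and dashed lines at the shares over all tested genes, 6.88% and 7.54%. The glucocorticoid-induced list has 22 of 27 higher and the interferon list 21 of 47 lower, while the respiratory chain list has 0 in either direction. The lists were chosen with earlier results of these data known.

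Several receptors that drive or brake fat release were lower in TG. Of 42 tested genes for adrenergic, fatty acid and lactate receptors and cyclic AMP signalling, 11 fell and 5 rose, with a median of -0.02. Adrb3 (ENSMUSG00000031489, chromosome 8, 27225776 to 27250616), the beta-3 receptor through which noradrenaline starts lipolysis in rodent adipocytes, was at 300.2, 670.2 and 1045 CPM in WT and at 74.6, 144 and 239 CPM in TG. The groups did not overlap, and the change was -2.20 (SE 0.32, adjusted p = 9.92e-04). Adrb1 fell as well (-0.63).

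Some receptors that restrain lipolysis fell as well. Hcar1, the lactate receptor that couples to the inhibitory G protein, was at 44.7, 75.1 and 138 CPM in WT and at 14.3, 20.4 and 26.1 CPM in TG (-1.95, SE 0.25, adjusted p = 2.90e-04). Ffar4, a receptor of long-chain fatty acids, was at 29.3, 37.0 and 54.8 CPM in WT and at 8.60, 14.2 and 15.7 CPM in TG (-1.57, SE 0.16, adjusted p = 6.55e-06). Neither of these pairs of groups overlapped. Ffar2, a receptor of short-chain fatty acids (-0.51), Hcar2, the niacin receptor (-1.13), and the cyclic AMP phosphodiesterase gene Pde4a (-0.99) also fell. Other inhibitory receptors of the list did not pass, with Adora1, the adenosine A1 receptor gene, at 0.01 (adjusted p = 0.975), the prostaglandin receptor gene Ptger3 at 0.39 (adjusted p = 0.146) and the alpha-2A adrenergic receptor gene Adra2a at -0.32 (adjusted p = 0.621). Among the 5 that rose were the kinase gene Sik1 (1.19), the adenylyl cyclase gene Adcy5 (0.33), the protein kinase A subunit gene Prkar2b (0.31) and Rgs2 (0.62), an inhibitor of G proteins. Leaving out WT 1 or WT 6 removed the calls of both Prkar2b and Rgs2, which left 3 genes higher, and Rgs2 also lost its call without TG 1 or WT 4. The highest adjusted p over the alternatives was 0.103 for Prkar2b and 0.114 for Rgs2. Outside the lists, Mc5r, a melanocortin receptor that can drive lipolysis, was at 0.368, 1.11 and 1.82 CPM in WT and at 8.70, 11.2 and 15.8 CPM in TG (3.32, SE 0.28, adjusted p = 5.27e-07).

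The lipases themselves did not pass the test. Lipe, hormone-sensitive lipase, was at 1790 to 2118 CPM in WT and 1572 to 2022 CPM in TG (-0.08, SE 0.07, adjusted p = 0.521), and Pnpla2, adipose triglyceride lipase, at 1413 to 2242 and 1264 to 2214 CPM (0.06, SE 0.13, adjusted p = 0.801). G0s2, the protein inhibitor of that lipase, was at 196, 278 and 375 CPM in WT and at 65.1, 104 and 136 CPM in TG, without overlap (-1.48, SE 0.20, adjusted p = 4.20e-04). Of 22 tested genes of lipolysis and the lipid droplet, G0s2 fell and 3 rose, the droplet fusion gene Cidec (0.38), the droplet budding gene Fitm2 (0.54) and the lipase partner Abhd15 (0.43). Among all tested genes 6.88% rose and 7.54% fell, so the list did not stand out in genes that fell. The call of Abhd15 was lost without any of TG 2, 3, 4 or 6 or WT 1, 2, 4, 5 or 6 (adjusted p up to 0.101 over the alternatives).

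**Figure D3:**
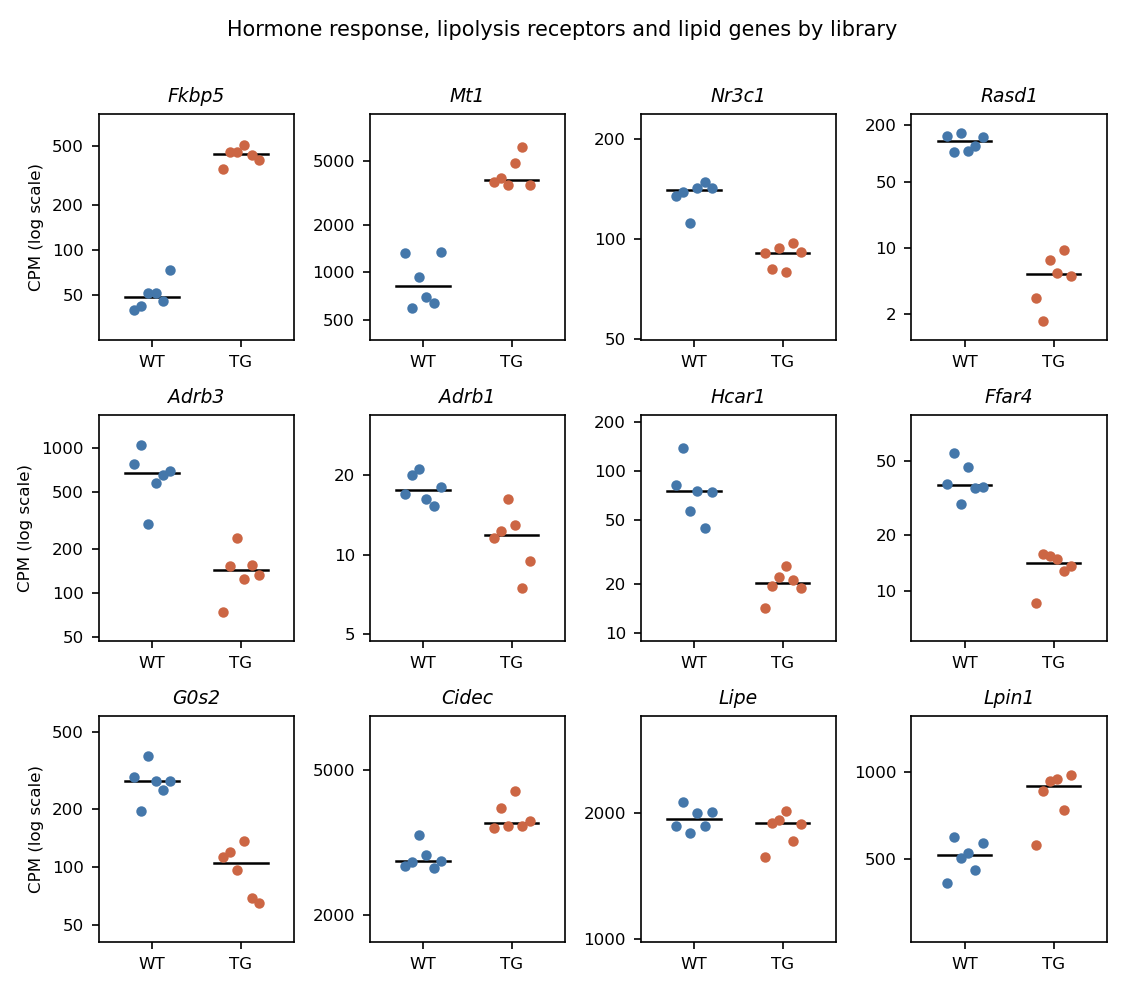
Level of 12 genes in each library (points, CPM on a log axis that differs between panels) with the group median (line), WT in blue and TG in orange. The groups do not overlap for Fkbp5, Mt1, Nr3c1, Rasd1, Adrb3, Hcar1, Ffar4, G0s2 and Cidec, and they overlap for Adrb1, Lipe and Lpin1.

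Some genes for storing fatty acids as triglyceride rose, and 2 regulators of new fatty acid synthesis fell. Of 18 tested triglyceride synthesis genes, the phosphatidate phosphatases Lpin1 (0.71), Lpin2 (0.49) and Lpin3 (a median of 5.99 CPM in WT and 15.0 CPM in TG) and the acyltransferase gene Gpat4 (0.41) rose and Gpat3 (-0.64), another acyltransferase of the same step, fell. Lpin1 was at 413 to 598 CPM in WT and 559 to 976 CPM in TG. The call of Gpat4 was lost without TG 2, 3, 4 or 6 or WT 1, 3, 4 or 5, and that of Lpin2 without TG 1 and TG 2 together (adjusted p up to 0.113 for both over the alternatives). A further gene of the list fell without WT 3. Of 18 genes of fatty acid handling, Angptl4, the inhibitor of lipoprotein lipase (0.66), and Gpihbp1, which anchors that lipase to the capillary wall (0.45), rose and 1 gene fell, with 2 that fell without TG 3, WT 5 or WT 6. These counts are not far from the 6.88% higher and 7.54% lower over all tested genes. Lpl, the lipase itself, was at 11060 to 14840 CPM in WT and 13070 to 15870 CPM in TG (0.10, adjusted p = 0.493). Of 21 lipogenesis genes 0 rose (0 by DESeq2 and by limma, 1 at an unadjusted p under 0.05, and 1 without TG 1) and 2 fell, the transcription factors Srebf1 (-0.55) and Mlxipl (-0.62), known as SREBP1 and ChREBP, a count near the 7.54% lower over all tested genes. The enzyme genes Acly (-0.47, SE 0.34, adjusted p = 0.423) and Fasn (-0.29, SE 0.25, adjusted p = 0.525) did not pass, and their groups overlapped.

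Several insulin signalling genes below the receptor were lower. Of 29 tested members 9 fell and 1 rose, with a median of -0.16. The list holds brakes on the signal as well as genes that carry it, so its count does not give a direction of signalling. The adaptors that carry the signal from the insulin receptor to PI3 kinase fell together. Irs1 (ENSMUSG00000055980, chromosome 1, 82233101 to 82291416) was at 29.1, 46.0 and 60.4 CPM in WT and at 12.8, 22.1 and 26.3 CPM in TG (-1.11, SE 0.18, adjusted p = 9.66e-04). Irs2 was at 88.2, 99.6 and 148 CPM in WT and at 46.0, 48.5 and 74.5 CPM in TG (-0.996, SE 0.14, adjusted p = 2.61e-04). Irs3, a substrate that rodents make in fat, was at 25.9, 31.1 and 35.8 CPM in WT and at 6.81, 9.64 and 12.7 CPM in TG (-1.71, SE 0.14, adjusted p = 3.25e-07). In each of the 3 genes every TG library lay below every WT library. The PI3 kinase subunit gene Pik3cb (-0.77) and the lipid phosphatase gene Inppl1 (-0.43) fell. Insr, the receptor, was at 52.0 to 78.2 CPM in WT and 54.5 to 78.0 CPM in TG (0.03, SE 0.10, adjusted p = 0.870).

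Some factors that insulin normally keeps inactive, and some inhibitors of mTOR, rose. Of 22 tested FOXO and mTOR pathway genes 7 rose and 0 fell, also 0 at an unadjusted p under 0.05 and by DESeq2 or limma, and 15 did not pass. Foxo1 (ENSMUSG00000044167, chromosome 3, 52268336 to 52353221) was at 106, 128 and 138 CPM in WT and at 190, 255 and 305 CPM in TG (1.00, SE 0.10, adjusted p = 5.77e-06). Ddit4, the inhibitor of mTOR complex 1 also known as REDD1, was at 28.1, 39.7 and 85.8 CPM in WT and at 212, 248 and 276 CPM in TG (2.44, SE 0.24, adjusted p = 3.53e-05). Foxo3 (0.67), the FOXO target Depp1 (1.84), the sestrin gene Sesn1 (0.70) and Mtor itself (0.34) were among the others that rose. Ddit4 and Foxo1 also stand on the glucocorticoid-induced list, so the counts of the lists are not separate.

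Few genes of glucose uptake and glycolysis passed the test. Of 26 tested members 2 fell and 1 rose, shares near or below the 7.54% and 6.88% over all tested genes, so the list as a whole did not stand out. Hk2, the insulin-regulated hexokinase, was at 156, 160 and 198 CPM in WT and at 85.4, 105 and 116 CPM in TG (-0.73, SE 0.09, adjusted p = 2.53e-05). Pfkfb3, which makes the activator of phosphofructokinase, was at 608, 630 and 831 CPM in WT and at 168, 264 and 429 CPM in TG (-1.31, SE 0.19, adjusted p = 6.16e-04). Both differences left the groups apart. Slc2a1, the basal glucose transporter, rose (0.45), a call lost without TG 2, 5 or 6 or WT 2, 3 or 5 (adjusted p up to 0.119 over the alternatives). Slc2a4, the insulin-regulated transporter GLUT4, was at 119, 129 and 146 CPM in WT and at 119, 146 and 169 CPM in TG (0.15, SE 0.09, adjusted p = 0.300).

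**Figure D4:**
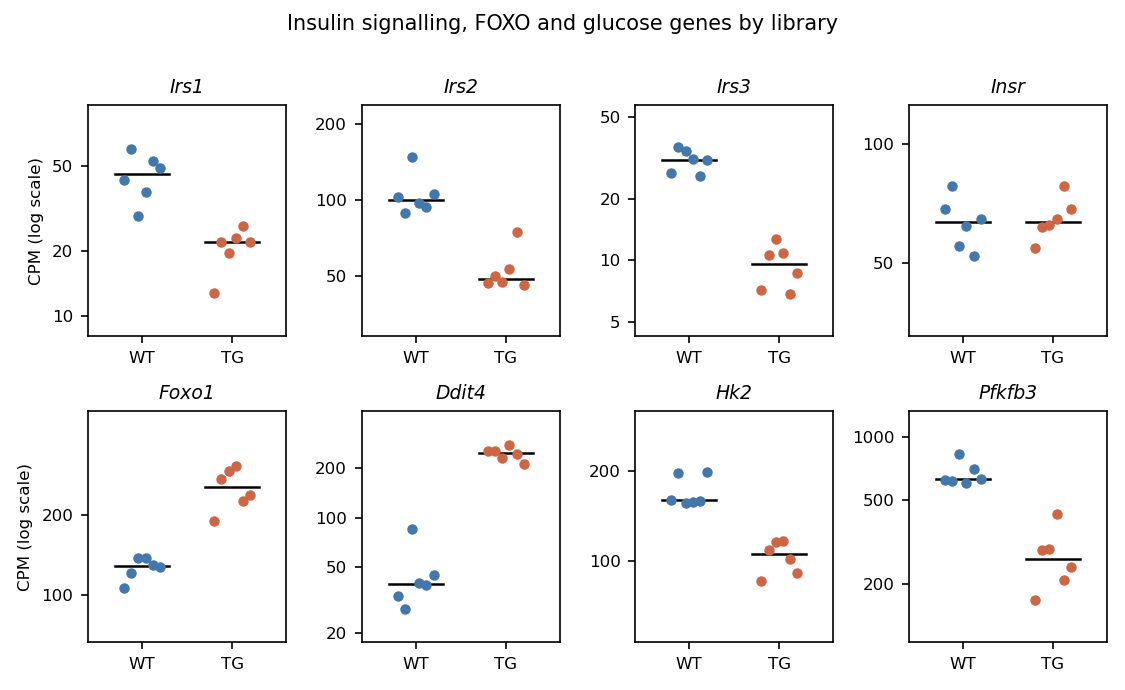
Level of 8 genes in each library (points, CPM on a log axis that differs between panels) with the group median (line), WT in blue and TG in orange. The 3 receptor substrates, Hk2 and Pfkfb3 are lower in every TG library, Foxo1 and Ddit4 are higher in every TG library, and the insulin receptor Insr overlaps.

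Genes that decide between burning and sparing glucose changed at several steps. Of 12 tested genes of the pyruvate switch, the pyruvate dehydrogenase kinases Pdk4 (2.50, SE 0.26, adjusted p = 7.13e-05) and Pdk2 (0.58) and the mitochondrial pyruvate carrier subunit Mpc2 (0.26) rose and the opposing phosphatase gene Pdp2 fell (-0.51). Pdk4 was at 12.97, 19.96 and 31.57 CPM in WT and at 79.5, 98.9 and 177 CPM in TG. The call of Mpc2 was lost without TG 3, 4, 5 or 6 or WT 1, 5 or 6, and that of Pdk2 with no filter on low counts (adjusted p up to 0.112 and 0.0573 over the alternatives). Of 7 arrestin genes, Arrdc3 (2.35) and Arrdc2 (2.73), adaptors that direct membrane receptors to degradation, and Txnip (0.37), the arrestin-like inhibitor of glucose uptake, rose. Of 21 glycogen genes, the phosphatase targeting subunit gene Ppp1r3c rose (1.25) and its relatives Ppp1r3d (-0.76) and Ppp1r3b (-1.08) fell. These counts are near the 6.88% higher and 7.54% lower over all tested genes, so the glycogen list did not stand out. The call of Ppp1r3c was lost with the replicate block and without TG 1 and TG 2 together, and that of Ppp1r3b with no filter on low counts. Without WT 2, 2 glycogen genes rose.

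Many transcription factors of the adipocyte were lower, while most secreted products did not pass the test. Of 25 tested adipocyte factors 11 fell and 2 rose, with a median of -0.27. Pparg (ENSMUSG00000000440, chromosome 6, 115360951 to 115490399), the nuclear receptor that maintains the fat cell, was at 157, 171 and 189 CPM in WT and at 63.3, 87.0 and 105 CPM in TG, without overlap (-1.01, SE 0.10, adjusted p = 2.09e-06). Cebpa (-0.54), the coactivator gene Ppargc1b (-1.34), Stat5a (-0.74) and Tcf7l2 (-0.45) fell too. Cebpd, which rose, is shared with the glucocorticoid-induced list, and the other factor that rose, Zfp423 (0.32), was called in 3 of the 12 fits that leave out 1 library, those without TG 5, WT 3 or WT 4 (adjusted p up to 0.176 over the alternatives). Without TG 5 the number that fell was 7. Of 22 adipokine genes, Nampt, the NAD synthesis enzyme that is also secreted, rose (1.12), and Angptl2 (-0.45), Nrg4 (-0.95) and Apln, the apelin gene (-1.82), fell. Without TG 1 or WT 3, 2 rose. Over all tested genes 6.88% rose and 7.54% fell. The adipokine entry for the agouti gene Asip was matched to a different gene, Pard3, which did not pass. Leptin was higher on average without passing, with Lep at 357, 1002 and 1449 CPM in WT and at 1196, 1431 and 2082 CPM in TG (0.65, SE 0.32, adjusted p = 0.233). The call of Apln was lost with the replicate block.

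Oxidative genes split between a few switches and the machinery. Of 26 tested genes of the respiratory chain and the citrate cycle 0 passed in edgeR, DESeq2 or limma and 0 had an unadjusted p under 0.05, while 22 lay above 0 with a median of 0.05. Without WT 2, 1 of them rose. Of 23 genes of fatty acid oxidation and ketone synthesis 4 rose, among them the mitochondrial carrier gene Ucp2 (0.92), and 1 fell, its muscle-type relative Ucp3 (-1.69).

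Clock genes moved in opposite directions. Of 23 tested members 6 rose and 5 fell. Bhlhe40 (ENSMUSG00000030103, chromosome 6, 108660629 to 108666925), a repressor of clock transcription also known as DEC1, was at 27.1, 44.0 and 57.1 CPM in WT and at 9.12, 11.4 and 13.0 CPM in TG (-1.87, SE 0.18, adjusted p = 7.38e-06). Its relative Bhlhe41 fell by 1.58 on the log2 scale. Cry2 (0.57), Per1 (0.91) and Clock (0.26) were among those that rose, and Arntl, the partner of Clock, did not pass (0.85, SE 0.28, adjusted p = 0.0565), though it did by DESeq2 (adjusted p = 0.0247), without TG 4 (0.0139) and without WT 1 (0.0394). The output factor gene Dbp (-1.35), Nr1d1, known as REV-ERB alpha (-0.76), and the clock kinase gene Csnk1e (-0.31) made up the rest of those that fell. The call of Dbp was lost without TG 1, 2, 3 or 6 or WT 2, 5 or 6 and that of Nr1d1 without TG 2, 5 or 6 or WT 1, 2, 4, 5 or 6. The number that fell was 3 without TG 2, TG 6, WT 2, WT 5 or WT 6. The call of Clock was lost with scaling to the spike-in RNA (adjusted p = 0.0509).

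Several inhibitors of growth rose and several feedback inhibitors of the MAP kinase pathway fell. Of 21 growth arrest genes 7 rose, among them Trp53inp1, a p53 target that promotes autophagy (1.78, SE 0.08, adjusted p = 3.39e-10), Gadd45g (2.36), Cdkn1a, the cell cycle inhibitor p21 (2.07), and the MYC antagonist Mxd4 (0.57). Gadd45a (-1.54) and Tob1 (-0.78) were among 5 that fell, a number that was 2 or 3 without TG 2, TG 3, TG 4, TG 6, WT 1, WT 3 or WT 5. Trp53inp1 was at 16.9, 20.7 and 22.5 CPM in WT and at 61.9, 71.2 and 76.2 CPM in TG. Of 23 genes of the cell cycle itself 1 fell, Ccnd1, cyclin D1 (-0.95), and 0 rose in edgeR or limma (1 by DESeq2, 1 without WT 2 or WT 4, 2 at an unadjusted p under 0.05). Of 19 MAP kinase feedback genes 8 fell and 2 rose. The phosphatase genes Dusp4 (-1.99) and Dusp8 (-0.97) and the receptor kinase inhibitor Spry2 (-0.68) fell, and Errfi1, an inhibitor of the EGF receptor (2.28), and Spry1 (0.49) rose. Errfi1 is on the glucocorticoid-induced list as well.

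Immediate early genes depended on 1 library. Over all 12 libraries 3 of 24 fell, Zfp36l2 (-0.88), Jund (-0.55) and Egr3 (-1.70, at a mean of 1.26 CPM), and 3 rose, Btg1 (0.60), Fosl2 (1.11) and Myc (0.96). Without TG 5 the number that fell was 10. Over all tested genes and all 12 libraries 7.54% fell and 6.88% rose. Egr1, a growth factor response gene, was at 21.1, 32.4 and 44.7 CPM in WT and at 8.93, 10.3 and 55.1 CPM in TG, where 55.1 is TG 5 and the next library is at 24.0 CPM. Its change was -0.72 (adjusted p = 0.415) with that library and -1.37 (adjusted p = 0.0242) without it. Fos did not pass (0.94, SE 0.51, adjusted p = 0.276). The call of Myc was lost without TG 5 or 6 or WT 1, 2, 3 or 5, and that of Egr3 without TG 1, 2, 3, 5 or 6 or WT 1, 4, 5 or 6 (adjusted p up to 0.106 and 0.160 over the alternatives).

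Genes that interferons induce, and those for cutting and loading peptides for display to T cells, were lower in TG. Of 47 tested members 21 fell and 0 rose (0 also at an unadjusted p under 0.05 and by DESeq2 or limma), 45 lay below 0, and the median was -0.43. The number that fell was 18 to 23 over all alternatives, which include leaving out TG 1, the library with the most immune cell markers. Cd274 (ENSMUSG00000016496, chromosome 19, 29367455 to 29388095), which encodes the checkpoint ligand PD-L1, was at 21.6, 30.5 and 36.8 CPM in WT and at 7.02, 9.18 and 10.7 CPM in TG (-1.71, SE 0.14, adjusted p = 1.99e-07). Irf1 (ENSMUSG00000018899, chromosome 11, 53770014 to 53778374), a transcription factor of the interferon gamma response, was at 78.8, 87.7 and 92.8 CPM in WT and at 38.6, 44.0 and 52.0 CPM in TG (-0.96, SE 0.08, adjusted p = 2.06e-07). Both genes were lower in every TG library. Of the 26 members that did not pass, 21 had their highest WT level in WT 5, and leaving that library out put 40 members below 0 and the median at -0.31.

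The fall reached the effectors and the peptide machinery. The guanylate-binding protein genes, cell-autonomous defence GTPases that lie side by side on chromosome 3 between 142493978 and 142638008, fell together: Gbp5 (-1.49), Gbp3 (-0.85), Gbp7 (-0.67) and Gbp2 (-0.57). The immunoproteasome subunit gene Psmb9 fell by 0.62, with 44.0, 50.7 and 52.3 CPM in WT and 28.3, 32.7 and 38.8 CPM in TG. Of 10 genes of MHC class II presentation, Ciita, the master activator of that class, fell (-0.92) and the other 9 did not pass. The median of that list was -0.075 and its count was near the 7.54% lower over all tested genes, so the class II list did not stand out. Summed markers of the cells that could carry these transcripts overlapped between the groups: macrophages at 1247 to 1773 CPM in WT and 1287 to 2417 CPM in TG, T and NK cells at 19.0 to 32.2 and 13.0 to 50.6 CPM, and B and plasma cells at 454 to 2142 and 618 to 946 CPM. Single markers moved with the fall in part. Of 5 tested B and plasma cell markers 5 lay below 0 with a median of -1.94, of 5 tested T and NK cell markers 4 (-0.58), of 6 tested granulocyte and mast cell markers 5 (-0.61) and of 12 tested macrophage markers 7 (-0.01). The cytotoxic granule gene Nkg7, at a mean of 2.98 CPM, fell (-1.23), and so did Jchain of secreted antibodies (-1.94), whose call was lost without any single library other than WT 6 (adjusted p up to 0.134 over the alternatives). Their part in the fall was not tested.

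**Figure D5:**
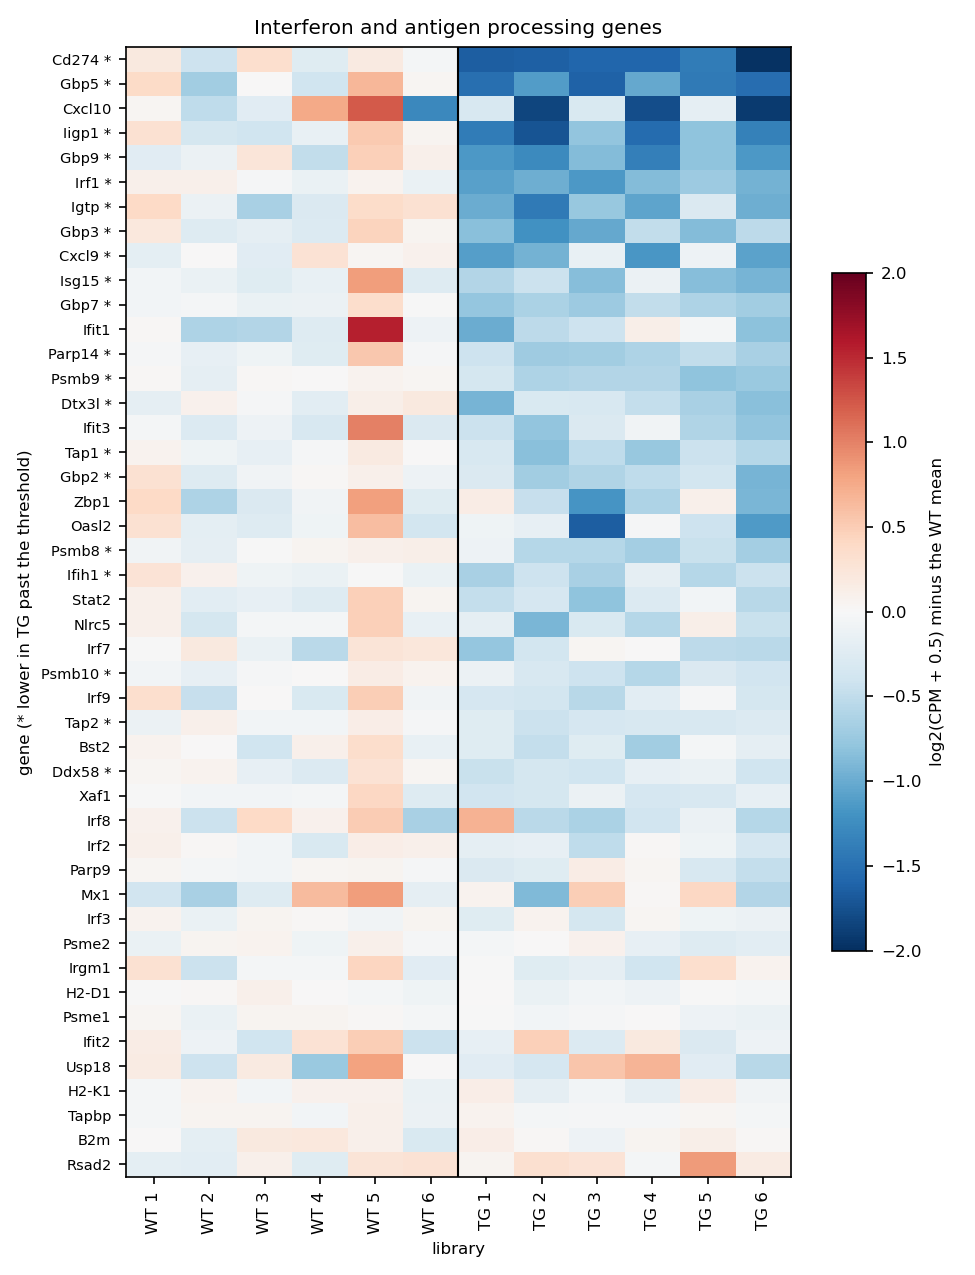
Level of 46 of the 47 tested interferon and antigen processing genes (rows, ordered by change) in each library (columns), as log2(CPM + 0.5) minus the WT mean, with the colour capped at 2 in either direction. Stars mark 20 genes lower in TG past the threshold, each of which is below its WT mean in all 6 TG libraries, while WT 5 is the highest WT library for 21 of the 26 others.

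The promoters of the interferon genes that fell were searched in the same windows for GAAANNGAA, the core of the interferon-stimulated response element, and for TTCNNNGAA, the gamma activation site. On both strands the first was present in 10 of 18 promoters of 16 genes (55.6%), against 970 of 13414 promoters of tested genes (7.23%), and the second in 5 of 18 (27.8%) against 885 of 13414 (6.6%). The motifs can overlap each other. The list was drawn up as genes that interferons induce, so such sites are a known property of its members. Examples from genes that fell are shown on the strand of the gene with the match in capitals, the first 4 for the response element and the last for the gamma activation site, to show how alike the element is across the chromosome 3 cluster and elsewhere.
Gbp7, chr3:142530264-142530312, plus strand: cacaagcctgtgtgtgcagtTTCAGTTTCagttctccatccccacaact
Gbp2, chr3:142620585-142620633, plus strand: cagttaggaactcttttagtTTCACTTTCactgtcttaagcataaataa
Cd274, chr19:29367342-29367390, plus strand: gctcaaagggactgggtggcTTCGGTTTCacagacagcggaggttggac
Igtp, chr11:58199502-58199550, plus strand: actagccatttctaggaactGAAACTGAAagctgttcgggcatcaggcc
Irf1, chr11:53769904-53769952, plus strand: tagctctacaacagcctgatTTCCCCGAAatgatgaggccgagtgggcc
In the first 3 the element lies on the strand opposite to the gene, and in Igtp (-0.96), an interferon-induced GTPase gene, on the strand of the gene. Over all genes called lower the response element was present in 8.52% of promoters, and over all called higher in 6.48%.

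In the NF-kappa B pathway the inhibitor gene Nfkbia rose, while the inhibitor gene Nfkbie and some subunit genes fell. Nfkbia, the inhibitor that holds NF-kappa B in the cytoplasm and a member of the glucocorticoid-induced list, was at 284, 323 and 395 CPM in WT and at 582, 698 and 984 CPM in TG (1.12, SE 0.12, adjusted p = 7.08e-06). Of 30 tested NF-kappa B and cytokine genes 6 rose and 5 fell. The subunit genes Relb (-0.99) and Nfkb2 (-0.62), the inhibitor gene Nfkbie (-1.18), the adhesion molecule gene Icam1 (-0.74) and the chemokine gene Cxcl12 (-0.47) were those that fell. The number that rose was 2 or 3 without TG 5, WT 2, WT 3, WT 4 or WT 5, and the call of Cxcl12 was lost without TG 3, 5 or 6 or WT 1, 2 or 6.

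Vessel and matrix genes also differed. Of 26 angiogenesis genes 10 fell and 3 rose, with a median of -0.32. The semaphorin and VEGF co-receptor genes Nrp1 (-0.41) and Nrp2 (-0.59), Jag1 (-0.51) and its receptor Notch1 (-0.47), and the angiopoietin receptor gene Tek (-0.56) fell. Notch4, the endothelial Notch receptor (0.66), the placental growth factor gene Pgf (1.35, at a mean of 4.44 CPM) and Flt1 (0.32) rose, and Vegfa did not pass (-0.48, SE 0.26, adjusted p = 0.279). The call of Flt1 was lost without TG 3 or any single WT library. Endothelial markers summed to 871 to 1103 CPM in WT and 865 to 1336 CPM in TG. Of 38 extracellular matrix genes 8 rose and 0 fell, also 0 by DESeq2 or limma and at an unadjusted p under 0.05. Ccn1, a matricellular protein known as CYR61, was at 21.3, 33.5 and 41.6 CPM in WT and at 90.03, 141 and 177 CPM in TG (2.08, SE 0.18, adjusted p = 7.08e-06). The basement membrane collagen gene Col4a1 (0.59), Thbs2 (0.97), the collagen crosslinking enzyme gene Lox (0.68) and Timp3 (0.40) rose too. The number of matrix genes that rose was 5 without TG 6 or WT 1, and 1 fell without TG 5.

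Some targets and inhibitors of the BMP pathway were lower. Of 32 tested TGF-beta and BMP genes 5 fell and 2 rose, against 7.54% lower and 6.88% higher over all tested genes. Id3, a standard BMP target, was at 240, 259 and 297 CPM in WT and at 85.0, 124 and 186 CPM in TG (-1.04, SE 0.16, adjusted p = 8.60e-04). The inhibitory SMAD genes Smad7 (-1.34) and Smad6 (-1.001), the signal transducer gene Smad5 (-0.40) and Id1 (-0.80) were the others that fell. Smad1 (0.51) and the co-receptor gene Tgfbr3 (0.26) rose. Without TG 5 the number that fell was 9. The call of Id1 was lost without TG 3 or 6 or WT 1, 2, 4 or 6, that of Smad1 without TG 1, 3 or 5 or WT 1, 2, 3 or 4, and that of Tgfbr3 without TG 4, 5 or 6 or WT 1 or 5.

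Smaller groups held single genes with clear steps. Of 14 Kruppel-like factor genes 4 rose and 5 fell. Klf13 (0.45), Klf6 (0.42) and Klf9 rose and Klf10, an early TGF-beta response gene, fell (-0.72), while the number that fell was 3 without TG 1, TG 4, TG 6, WT 1, WT 2, WT 3, WT 4 or WT 6. Klf15, a glucocorticoid target that controls amino acid use, rose (0.73), a call lost without TG 3, TG 4, WT 1 or WT 5 (adjusted p up to 0.0703 over the alternatives).

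Survival, amino acid and growth hormone genes changed one at a time. Bcl2l1, which encodes the survival protein BCL-XL, was at 22.5, 31.0 and 35.0 CPM in WT and at 51.3, 71.6 and 77.2 CPM in TG (1.17, SE 0.11, adjusted p = 1.33e-06), and Bbc3, the death-promoting PUMA gene, fell (-0.75). Slc7a8 (0.97) and Slc3a2 (0.69), which encode a light and the heavy chain of amino acid exchangers, had the smallest p of the 3 of 24 branched-chain amino acid genes that rose. Fbxo32, the atrophy ubiquitin ligase gene also called atrogin-1 (0.50), and Wipi1, an early autophagy gene (0.34), had the smallest p of the 5 of 24 autophagy genes that rose. Over all tested genes 6.88% rose. Stat5b (-0.33), like Stat5a a transducer of growth hormone, fell, Socs1, a feedback inhibitor of cytokine receptors, fell at a mean of 2.15 CPM (-1.61), and Igfbp3, which binds insulin-like growth factors, rose (0.82).

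Stress and developmental signals were mixed. Hif3a, a hypoxia-inducible factor gene that antagonises the others, rose (1.78) from 1.29 to 3.54 CPM in WT to 5.77 to 12.3 CPM in TG. Mthfd2, the mitochondrial folate enzyme, rose (1.06) and the stress factor gene Ddit3, known as CHOP, fell (-0.68). The chaperone genes Dnajb1 (0.78) and Chordc1 (-0.43) moved apart. Axin2, a standard target and inhibitor of Wnt signalling, was at 8.53, 11.6 and 15.2 CPM in WT and at 3.45, 4.65 and 5.71 CPM in TG (-1.34, SE 0.17, adjusted p = 3.81e-05), while the Wnt co-receptor gene Lrp6 rose (0.48). Serpina3n, an acute phase protease inhibitor, rose from a median of 346 to 571 CPM (0.68).

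Some RNA-binding genes that respond to cold or act in splicing rose. Cirbp (ENSMUSG00000045193, chromosome 10, 80165985 to 80172786), the cold-inducible RNA-binding protein, was at 45.2 to 62.5 CPM in WT and at 76.2 to 106 CPM in TG, without overlap (0.76, SE 0.09, adjusted p = 2.59e-05). Of 19 tested genes of cold response and splicing 7 rose and 1 fell. The splicing factor genes Srsf6 and Srsf5 and the splicing kinase gene Clk1 each rose by 0.29, and Srsf1 fell (-0.34). Rbm3, the other cold-induced protein gene, was at 7.82 to 11.9 CPM in WT and 10.6 to 15.8 CPM in TG (0.43, SE 0.13, adjusted p = 0.0338). Its call was lost without TG 1, 2, 4 or 6 or WT 2, 4, 5 or 6 (adjusted p up to 0.148 over the alternatives).

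Outside the lists the largest changes included genes that sit next to each other. Setdb2, a histone methyltransferase gene, was at 1.82, 2.95 and 4.39 CPM in WT and at 23.3, 38.0 and 52.4 CPM in TG (3.69, SE 0.23, adjusted p = 7.53e-08). Its neighbour on chromosome 14, Phf11c, changed alike (3.79, SE 0.19, adjusted p = 1.30e-09), with Phf11c at 59380833 to 59395381 and Setdb2 at 59402009 to 59440884 on the same strand. Phf11c has near-identical copies, between which reads can be split. Doc2b, a calcium sensor of vesicle release that also serves GLUT4 traffic, was at 0.955, 1.35 and 2.27 CPM in WT and at 20.2, 23.3 and 28.1 CPM in TG (3.96, SE 0.18, adjusted p = 3.39e-10). The kinase gene Hipk1 (1.71), the scaffold gene Ranbp9 (1.74), Tiparp, a repressor of the aryl hydrocarbon receptor (1.36), and the calcium store sensor gene Stim1 (1.38) rose in every TG library above every WT library.

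Developmental regulators stood among the genes that fell. Hoxc6 was at 80.1, 92.1 and 118 CPM in WT and at 38.1, 45.3 and 46.3 CPM in TG (-1.12, SE 0.09, adjusted p = 1.60e-07), and Hoxc4, its neighbour in the HoxC cluster on chromosome 15, fell by 1.201 on the log2 scale. Dmrt2 (-1.44), a transcription factor gene, the chromatin gene Bahcc1 (-2.36) and Txnl1, a partner of the proteasome (-0.81), were lower with no overlap between the groups.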

How the data were processed

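Perigonadal fat libraries were made from total RNA with a 3′ mRNA kit (QuantSeq 3′ FWD), per the labels' protocols. The protocols name molecular identifiers for other libraries of the series and not for these, so reads may include PCR copies. The deposited table holds whole-number counts of reads per gene, not normalised, with 55401 gene rows and 121 rows for spike-in and ribosomal RNA. The submitters' processing notes list STAR 2.7.10, cutadapt 1.18, UMI-tools 1.1.2 and bcl2fastq 2.20.0.422, with no order, and 2 genome builds, GRCm38 and GRCm39. The build behind this table, and the program that counted, are not given in the sources used here. Gene rows took 99.8% of counts.

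Genes were filtered with filterByExpr, scaled by TMM and tested with the robust quasi-likelihood test of edgeR 4.0.16 in R 4.3.3 over the 6 WT and 6 TG libraries, with Benjamini-Hochberg adjustment over 14359 genes and a threshold of 0.05. Adjusted p-values in the text are from that test unless another tool is named. CPM values were computed from the counts with TMM factors. DESeq2 1.42.0, limma 3.58.1, other filters and scalings, a replicate block and leaving out each library were alternatives. On simulated counts for 14230 genes the test recovered 98% of 2-fold and 63% of 1.5-fold changes, with 5.85% false calls. Only 100 genes were changed at each fold, far fewer than the 2071 genes called here. They were drawn from genes above a minimum expected count, so recovery for genes at low counts was not measured.

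The comparison and the 60 gene lists (44 programmes and 16 marker lists, 1120 genes of which 1119 matched and 1026 were tested) were chosen with earlier results of these data known, so no list is independent evidence. Some genes stand on several lists, and the adipokine entry Asip was matched to a different gene, Pard3. Genes were named by smallest p, up to 6 per list at a mean of at least 5 CPM, with the defining members of each list and, outside the lists, the 20 smallest p and 15 largest changes in each direction. Sgk1, Sik1, Adcy5, Prkar2b, Rgs2, Fasn, Zfp423, Dbp, Nr1d1, Myc, Egr3, Egr1, Smad1, Gbp3, Gbp2, Igtp, Nfkbie, Pgf, Flt1, Klf15, Socs1, Adora1, Ptger3, Adra2a, Jchain and Nkg7 fall outside that rule and were chosen after their values were seen. Gene identifiers were matched to GENCODE vM21 (GRCm38) for positions, and promoter sequences are from RefSeq on GRCm38.p6. Some genes that are counted in the lists are not reported by name here.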

Additional observations from a re-analysis of the deposited data

Results flagged for a closer look

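A single library lay far from the other 5 of its group in 42 of 420 groups of 6 examined, which were the genes named, the marker sums and the spike-in share (Dixon's ratio at its 95% critical value). Chance gives about 1 in 20 such groups. Values are CPM, and the weight of each library in the calls was measured only by leaving it out.

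TG 5 was high for genes of the early response to stimulation and for some vessel genes. It had Egr1 at 55.07 (the others at most 23.96), Fosl2 at 150.3, Myc at 9.91, Klf6 at 412.7, Dnajb1 at 75.06, Socs1 at 2.671 and Icam1 at 20.34. In the same library Sgk1 was at 131.9, Irs2 at 74.46, Tcf7l2 at 103.7, Clock at 106.6, Smad1 at 55.93 and Flt1 at 345. Without TG 5 the immediate early genes that fell went from 3 to 10.

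TG 1 held the lowest Adipoq (3783, the others at least 4939) and the lowest sum of adipocyte markers (34620). It held the highest macrophage (2417), T and NK cell (50.64) and granulocyte and mast cell sums (112.4), and the highest Ucp2 (346.8) of its group. TG 2 had liver transcripts at 1455 and Ppp1r3b at 15.8. TG 3 had Mlxipl at 43.19 and Fasn at 2642, and TG 6 had Zfp423 at 70.35.

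Among the WT libraries, WT 3 had Ddit4 at 85.76 (the others at most 44.65), Irs2 at 148, Gadd45g at 68.23, Abhd15 at 17.62, Serpina3n at 440.7 and a low Flt1 at 184. WT 6 had Fkbp5 at 74.2, Errfi1 at 25.34, Ppp1r3c at 30.01 and Tgfbr3 at 131.3. WT 2 had Hcar2 at 27.53 and Fasn at 3926 and the lowest Psmb9 (44.03) and Slc7a8 (14.5). WT 1 had Ccnd1 at 75.26 and epididymis transcripts at 17.26, WT 4 had Sesn1 at 36.37, and WT 5 had Gbp7 at 142.4. Epididymis transcripts were higher in TG 2 (63.63) and TG 4 (30.5) than in WT 1. Dixon's ratio did not flag these TG libraries, since it looks for a single library far from the rest.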

How the results depend on the processing

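The calls were recomputed under 21 alternatives, of which 2, spike-in scaling and leaving out TG 1 and TG 2 together, were chosen after seeing the data. The number of genes higher in TG was 988 and ran from 796 to 974 when 1 library was left out, and the number lower was 1083 and ran from 870 to 1117. With a replicate block, 869 were higher and 1005 lower, and the correlations of same-numbered libraries, from -0.087 to 0.105, did not make the numbers pairs. Spike-in scaling gave 698 higher and 1121 lower, DESeq2 1166 and 1269, and without TG 1 and TG 2 the counts were 840 and 929. The difference in spike-in share ran from -0.00369 to -0.000928 percentage points when 1 library was left out. Of 177 named genes past the threshold, 151 stayed past it in the same direction under each alternative that gave them a value and 26 were lost under at least 1. None of the 177 reversed, and 4 genes that had not passed did. When 1 library was left out, Pnpla2 ran from -0.011 (without TG 5) to 0.159, Insr from -0.028 (without TG 5) through -0.018 (without WT 5) and -0.005 (without WT 3) to 0.102 (0.109 without TG 1 and TG 2 together), and Gdf15 from -0.525 to 0.260 (without WT 3), with 0.021, 0.101, 0.037 and 0.082 without TG 2, TG 3, TG 4 and TG 6. Adora1 ran from -0.064 (without WT 1) to 0.078, with -0.042, -0.040, -0.012 and -0.011 without WT 4, TG 6, WT 6 and TG 5, and was at -0.031 with spike-in scaling and -0.002 with the stricter filter. The cause was not tested. Depth limits genes near 3 counts. On simulated data 98% of 2-fold but 63% of 1.5-fold changes were recovered, so a 1.5-fold change that did not pass may be missed. That recovery covers genes above a minimum expected count only, and changes in genes at low counts were not simulated.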
